A study of Mus musculus with 12 samples.

Results

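The genes described here were those whose RNA had dropped within 1 h of β2-adrenergic receptor (B2AR) stimulation in mouse bone marrow-derived macrophages (BMDMs). They were chosen by a mean of at least 2 CPM (the count of a gene scaled to a common library total) over all 12 libraries, those of 4 h included, and by the untreated and 1 h values, with a 1 h mean at 60% or less of the untreated mean after adding 0.1 CPM to both and a 1 h value below the untreated value in each of the 4 mice. Of the 53379 genes in the count table, 10566 reached the mean of 2 CPM and 211 met the whole rule (2.00% of the 10566). Another 4 genes met the mean and the ratio but were not lower in every mouse. The drop at 1 h is therefore how the genes were selected, and it is given as a description from which no test is read. The values at 4 h, which entered the rule through the 12-library mean alone, show which of the genes recovered. That mean decided few genes by its 4 h part: 1 member (Efcab7) was under 2 CPM over the untreated and 1 h libraries alone, and 6 other genes at 2 CPM or more over those libraries met the ratio and the order in each mouse but missed the mean over all 12.

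BMDMs were grown for 1 week from the bone marrow of 4 male adult C57Bl/6J mice in medium with serum and L929 cell conditioned medium, a source of macrophage growth factor, and carried no transgene or deleted allele. Each culture was either kept untreated or given 1 µM fenoterol, a selective B2AR agonist, for 1 h or for 4 h without a change of medium, so each of the 3 groups held 1 library from each of the 4 mice. Library totals were 14580533 to 22580692 counts in untreated cells, 18288911 to 20549801 at 1 h and 18446470 to 24153284 at 4 h. The macrophage markers, with Lyz2 the most abundant, summed to 38610 to 40208 CPM in untreated cells, 35991 to 41418 at 1 h and 37028 to 41007 at 4 h, and none of the 8 was a member of the set. Summed T cell, NK cell, mast cell and erythroid markers were at most 0.248 CPM in any library, B cell markers 6.24 to 11.9, neutrophil markers 16.9 to 31.7 and fibroblast markers 13.7 to 40. Dendritic cell markers summed to 0.944 to 1.91 CPM untreated, 0.779 to 1.17 at 1 h and 0.389 to 1.4 at 4 h. The 3 endothelial markers summed to 2.86 to 5.91 CPM untreated, 4.67 to 9.1 at 1 h and 7.05 to 14 at 4 h, and the part of either list in the results was not tested. In such bulk samples, fewer cells of a type and less RNA per cell cannot be told apart.

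The B2AR couples to the stimulatory G protein Gs, which activates adenylyl cyclase, raises cyclic AMP and activates protein kinase A, and the kinase then phosphorylates the transcription factor CREB. Cyclic AMP is also known to restrain inflammatory gene expression in macrophages, the tissue phagocytes that sense microbes, chemoattractants, lipids and nucleotides through surface receptors. RNAs of signalling proteins, transcription factors and chemokines are often short-lived. No RNA half-life or synthesis rate was measured here.

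Together the 211 genes took 1.79 to 1.91% of all counts in the untreated libraries, 0.858 to 0.942% at 1 h and 0.988 to 1.05% at 4 h. Their median level was 52% of untreated at 1 h and 60.1% at 4 h, against 95.2% and 102% over all 10566 genes. The deepest drop at 1 h was to 7.53%, 4 genes were under 10%, 9 under 25% and 88 under 50%. At 1 h, edgeR called 202 of the 211 lower (10.1% of the 12386 genes tested were called lower), and in 194 the 4 treated values all lay below the 4 untreated ones (19.3% of the 10566 genes). Those counts follow from the rule.

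The set divided at 4 h. Using the same limit as at 1 h, 105 genes stayed low, at 60% or less of untreated (49.8% of the set, against 5.97% of all 10566 genes). At the other end 50 genes had recovered to 80% or more (23.7%, against 83.1% of all genes), and 56 lay between and are called partly recovered. The recovered count moved with the processing, which also changed which genes met the rule: 30 genes recovered when CPM was computed with TMM-adjusted library sizes (161 genes then met the rule), and 31 when 1 CPM in place of 0.1 was added (170 genes). Recovered genes were the less abundant, with a median untreated level of 10.0 CPM, against 33.6 in those that stayed low, 36.3 in the partly recovered and 32.4 over all genes. Levels at 4 h ran from 6.67 to 145% of untreated, with 59 genes lower at 4 h than at 1 h and 15 above untreated.

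In edgeR's quasi-likelihood test with Benjamini-Hochberg adjustment over all 12386 genes tested, 158 of the 211 were lower at 4 h than untreated (74.9%, against 20.4% of all genes) and 2 were higher (0.948%, against 19.7%). The untreated libraries of this comparison were also used by the rule. Without overlap between the 4 mice of each group, 149 genes lay below untreated (70.6%, against 19.2% of the 10566), and 174 were lower in each mouse (82.5%, against 26.8%). Against 1 h, whose libraries the rule used too, 88 genes were higher at 4 h (41.7%, against 18.7% of all genes) and 43 lower (20.4%, against 19.8%). In 86 genes all 4 h values lay above all 1 h values (40.8%, against 28.7% of the 10566). Reading both calls together, 71 genes were still below untreated with no call against 1 h (33.6%, against 6.01% of all genes tested) and 44 were below untreated but above 1 h (20.9%, against 0.549%). Another 43 were below both (20.4%, against 13.8%), 42 were above 1 h with no call against untreated (19.9%, against 6.84%), 2 were above both (0.948%, against 11.3%) and 9 had no call (4.27%, against 49%). Since the rule set the members' 1 h values below their untreated ones, nothing is read from the difference of these shares.

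**Figure D1:**
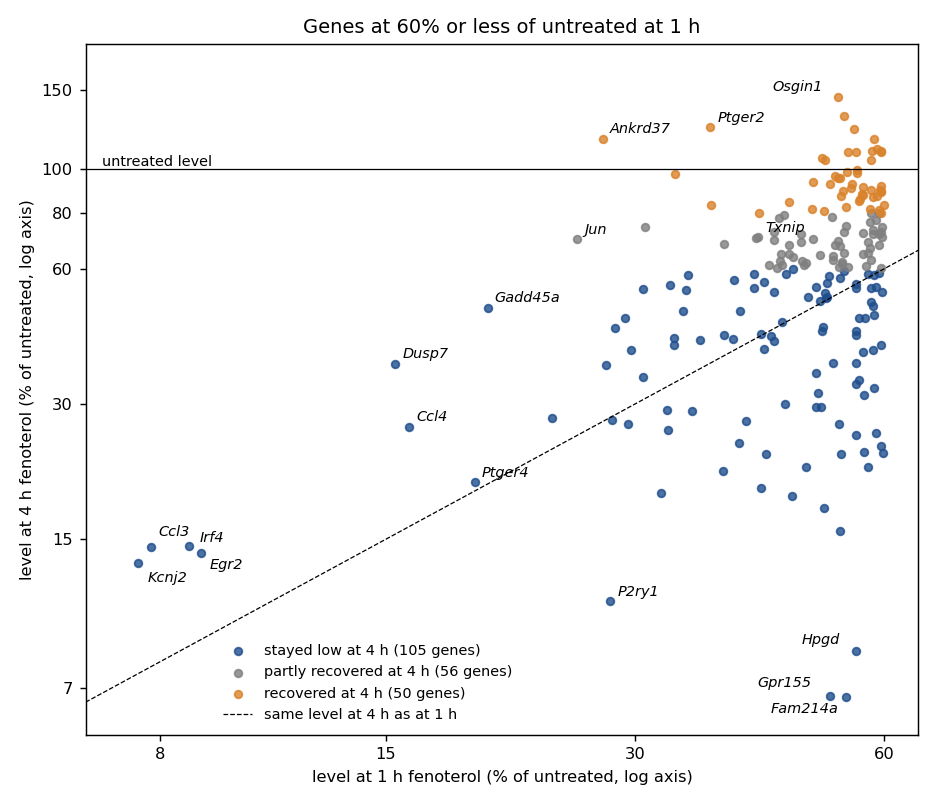
Mean level of each of the 211 genes at 1 h (horizontal) and at 4 h (vertical), both in percent of the untreated mean on log axes, coloured by the class at 4 h, with a dashed line where both levels are equal. Kcnj2, Ccl3, Irf4 and Egr2 stand alone at the left and stayed under 15% at 4 h, Fam214a, Gpr155 and Hpgd lie far below the dashed line, and Osgin1 at 145% is the highest.

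The genes with the deepest drop were Kcnj2, which encodes an inwardly rectifying potassium channel, Ccl3, a chemokine that attracts leukocytes, and Irf4 and Egr2, transcription factors of macrophage polarization and differentiation. They lie on 3 chromosomes, and their promoter sequences are shown because these 4 genes fell under 10% of untreated at 1 h. The sequences are from RefSeq (GRCm38.p6), from 250 bases before to 50 after the annotated start, on the strand of the gene, with matched motifs in capitals. Kcnj2 is at chr11:111065914-111066213 (plus strand), Ccl3 at chr11:83649329-83649628 (minus), Irf4 at chr13:30748983-30749282 (plus) and Egr2 at chr10:67537619-67537918 (plus).
Kcnj2: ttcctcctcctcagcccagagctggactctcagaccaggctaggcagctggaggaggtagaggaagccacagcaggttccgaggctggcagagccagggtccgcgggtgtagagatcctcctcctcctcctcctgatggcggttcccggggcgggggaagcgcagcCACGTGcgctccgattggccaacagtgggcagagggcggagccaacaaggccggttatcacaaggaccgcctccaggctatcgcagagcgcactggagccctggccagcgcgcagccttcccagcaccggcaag
Ccl3: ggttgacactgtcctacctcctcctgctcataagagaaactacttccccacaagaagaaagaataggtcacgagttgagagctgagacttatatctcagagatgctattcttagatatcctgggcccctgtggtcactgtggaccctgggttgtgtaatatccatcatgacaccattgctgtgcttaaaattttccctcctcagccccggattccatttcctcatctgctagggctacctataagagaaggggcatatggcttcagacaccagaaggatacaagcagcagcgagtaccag
Irf4: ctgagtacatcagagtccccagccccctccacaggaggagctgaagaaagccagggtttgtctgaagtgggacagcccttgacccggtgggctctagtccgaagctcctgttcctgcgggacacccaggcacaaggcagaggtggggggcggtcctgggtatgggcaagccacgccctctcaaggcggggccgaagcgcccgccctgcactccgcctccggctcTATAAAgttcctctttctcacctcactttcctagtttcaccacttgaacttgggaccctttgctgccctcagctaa
Egr2: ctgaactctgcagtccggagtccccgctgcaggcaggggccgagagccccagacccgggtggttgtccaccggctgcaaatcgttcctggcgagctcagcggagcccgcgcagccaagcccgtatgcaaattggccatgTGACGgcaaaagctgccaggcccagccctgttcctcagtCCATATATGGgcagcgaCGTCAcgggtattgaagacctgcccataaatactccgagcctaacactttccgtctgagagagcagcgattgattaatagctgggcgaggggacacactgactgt

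Both strands were searched for the cyclic AMP response element (TGACG followed directly by TCA), its core TGACG, which the full element contains, the AP-1 motif TGANTCA, the E-box CACGTG, the FOXO motif GTAAACA, the TATA box TATAAA, the PU.1 motif (GAGGA followed by AGT), and, by name, the interferon-stimulated response element, NF-kB and CArG (serum response factor) motifs. Positions count back from the annotated start. The Kcnj2 window held an E-box at position -84 and the Irf4 window a TATA box at -26. The Egr2 window held the core TGACG at -111 and, on the other strand (printed as CGTCA), at -55, with a CArG motif at -72. None of these letters was in the Ccl3 window. Over the 8478 promoters of genes with a mean of at least 2 CPM, the full element was in 3.34%, its core in 33.9%, AP-1 in 4.61%, the E-box in 10.7%, FOXO in 2.44%, TATA in 6.62% and PU.1 in 3.56%. The interferon-stimulated response element was in 3.36%, NF-kB in 10.5% and CArG in 1.19%. Only 155 of the 211 genes (73.5%) had a promoter in the table, under the 80% needed, so a motif share over the set would be void and none is given.

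Kcnj2 (Ensembl ENSMUSG00000041695) was at 47.4, 33.2, 37.9 and 32.4 CPM in untreated cells of mice 1 to 4, at 2.4, 3.34, 3.07 and 2.18 at 1 h, and at 3.89, 4.93, 5.20 and 5.71 at 4 h. Each 4 h value lay above each 1 h value and far below each untreated one. The log2 change at 4 h was -2.96 ± 0.16 (SE) against untreated (edgeR adjusted p = 2.36e-09) and 0.76 ± 0.18 against 1 h (edgeR adjusted p = 0.00385). Kcnj10, the other of 7 potassium channel genes at 2 CPM or more that met the rule, behaved otherwise. It was at 28.3, 29.1, 21.1 and 26.3 CPM untreated, 17.3, 18, 11.4 and 14.4 at 1 h and 9.51, 9.92, 7.39 and 7.04 at 4 h. It thus fell further in each mouse, by 0.95 ± 0.17 (log2, SE) from 1 h to 4 h (edgeR adjusted p = 0.000421). Of the 12 potassium channel genes tested, 4 were lower and 1 higher at 4 h than untreated.

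Ccl3 (ENSMUSG00000000982) and Ccl4 (ENSMUSG00000018930), neighbouring genes on chromosome 11, dropped together. Ccl3 was at 50.8, 41.8, 48.9 and 33.6 CPM untreated, 3.90, 3.23, 3.31 and 2.84 at 1 h, and 6.75, 4.23, 7.73 and 6.17 at 4 h. Ccl4 was at 21.3, 17.8, 28.0 and 18.3 CPM untreated, 2.95, 2.68, 4.28 and 3.40 at 1 h, and 6.81, 4.66, 5.69 and 5.38 at 4 h. For both genes the 3 groups did not overlap, with 4 h between 1 h and untreated. The log2 change against untreated was -2.84 ± 0.17 (SE) for Ccl3 (edgeR adjusted p = 7.57e-09) and -1.95 ± 0.17 for Ccl4 (edgeR adjusted p = 4.34e-07). From 1 h to 4 h, Ccl3 rose by 0.81 ± 0.19 (edgeR adjusted p = 0.00388) and Ccl4 by 0.66 ± 0.19 (edgeR adjusted p = 0.0118, but 0.0503 with limma-voom). They were the only members among 14 chemokine genes at 2 CPM or more. Of the 17 chemokines tested, 8 were higher and 4 lower at 4 h than untreated, and the list's median log2 change was 0.47.

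Irf4 (ENSMUSG00000021356) was at 13.9, 25.1, 17.9 and 27.0 CPM untreated, 0.951, 2.30, 1.12 and 2.54 at 1 h, and 1.89, 3.36, 3.55 and 3.02 at 4 h. The 1 h and 4 h values overlapped, although 4 h was the higher in 4 of 4 mice. The log2 change was -2.84 ± 0.28 (SE) against untreated (edgeR adjusted p = 1.58e-06) and 0.69 ± 0.33 against 1 h (edgeR adjusted p = 0.112, and 0.00718 with the mouse as a replicate block). Irf8, a factor that myeloid cells need for macrophage fate, was far more abundant, at 286, 359, 293 and 312 CPM untreated, 153, 188, 185 and 186 at 1 h and 140, 160, 148 and 133 at 4 h. Irf8 kept falling, with a log2 change from 1 h of -0.38 ± 0.09 (edgeR adjusted p = 0.00279). Irf1, an activator of interferon-induced genes, was at 116 to 145 CPM untreated, 70.5 to 79.7 at 1 h and 81.0 to 91.1 at 4 h, and its 4 h level stayed below untreated by 0.61 ± 0.07 on the log2 scale (edgeR adjusted p = 4.33e-06). Of the 8 interferon regulatory factors tested, 3 were lower and 1 higher at 4 h than untreated, and 3 of 8 were members. No member was among 30 listed interferon-stimulated genes, of which 3 were lower and 4 higher at 4 h, but the list is partial: the interferon-inducible genes Ifi207, Slfn2, Slfn3, Slfn8, Tgtp2 and Batf2, which it does not hold, were members, at 44.8 to 59.4% of untreated at 1 h.

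Egr2 (ENSMUSG00000037868) was at 20.7, 14.7, 12.5 and 15.1 CPM untreated, 1.00, 0.875, 2.00 and 1.42 at 1 h, and 3.67, 1.57, 1.90 and 1.37 at 4 h. Mouse 1 was the highest at 4 h, and only 2 of 4 mice were higher at 4 h than at 1 h. The log2 change was -2.93 ± 0.29 (SE) against untreated (edgeR adjusted p = 1.38e-06) and 0.57 ± 0.34 against 1 h (edgeR adjusted p = 0.21). Jun, a subunit of the AP-1 transcription factor encoded by a single exon, had a different course. It was at 71.5, 78.9, 69.3 and 76.2 CPM untreated, 20.9, 16.7, 21.3 and 16.3 at 1 h, and 61.0, 40.3, 51.1 and 54.1 at 4 h. Its 4 h values lay between the other 2 groups without overlap, at 69.8% of untreated, and the log2 change from 1 h was 1.36 ± 0.12 (edgeR adjusted p = 4.86e-07).

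**Figure D2:**
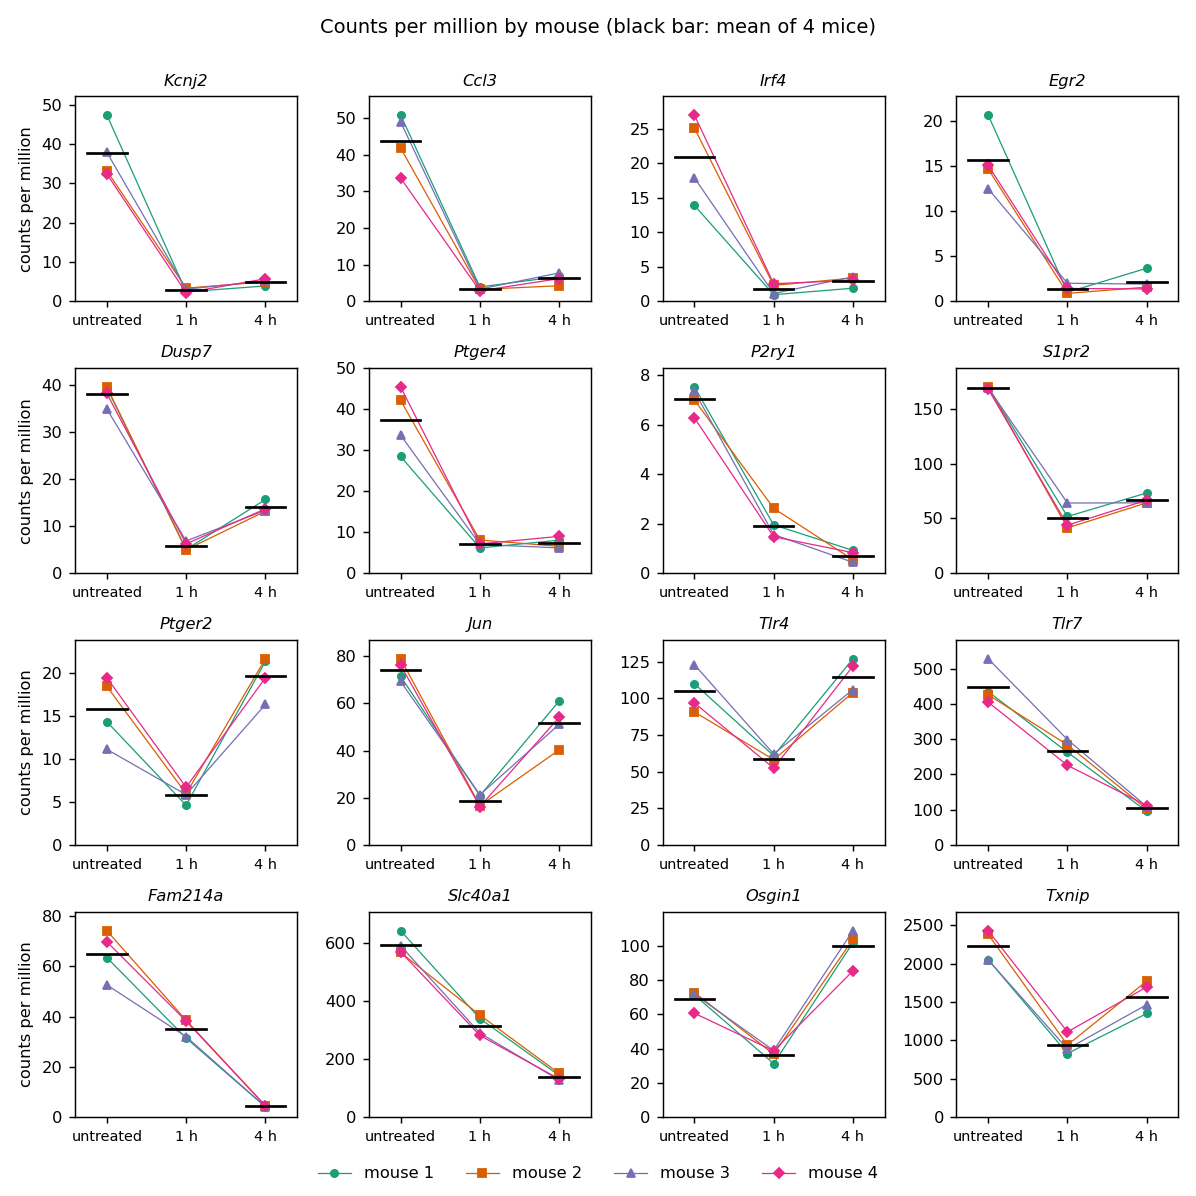
CPM of 16 members in each library, with a line and symbol per mouse, a black bar at the mean of the 4 mice and a linear axis from 0. Kcnj2, Ccl3, Irf4, Egr2 and Ptger4 were still at 13.3 to 20.1% of untreated at 4 h, P2ry1, Tlr7, Fam214a and Slc40a1 fell further, and Ptger2, Tlr4 and Osgin1 returned to or above the untreated range.

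Of 13 MAP kinase phosphatases and ERK feedback inhibitors at 2 CPM or more, Dusp7 and Dusp4 were members. Dusp7, a phosphatase that inactivates the kinase ERK, was at 39.5, 39.7, 35.0 and 38.3 CPM untreated, 5.06, 4.98, 6.86 and 6.24 at 1 h and 15.7, 13.2, 13.4 and 13.7 at 4 h. It had thus come back part of the way in each mouse, by a log2 change of 1.18 ± 0.11 (SE, edgeR adjusted p = 7.86e-07), and still stood at 36.9% of untreated. Outside that list, Gadd45a, induced by DNA damage and stress, also came back part of the way, from 22.6 to 28.6 CPM untreated to 4.26 to 5.71 at 1 h and 11.2 to 13.5 at 4 h, a log2 change from 1 h of 1.22 ± 0.12 (edgeR adjusted p = 1.28e-06). Dusp4, a nuclear phosphatase of the same family, was at 14.6, 8.44, 10.7 and 8.25 CPM untreated, 6.16, 4.65, 5.64 and 5.73 at 1 h and 9.78, 3.52, 6.66 and 6.00 at 4 h. Its groups overlapped at 4 h, and its difference from untreated (log2 -0.73 ± 0.25, edgeR adjusted p = 0.0325) was lost without mouse 1 (0.13) or mouse 3 (0.0566) of the untreated group and without mouse 2 (0.0788), 3 (0.0609) or 4 (0.0783) of the 4 h group, and with the 1 h group left out of the fit (0.0564). Of the 15 genes of the list that were tested, 8 were higher and 3 lower at 1 h than untreated (median log2 change 0.78), Dusp7 and Dusp4 having been chosen by this comparison. Of all genes tested, 10.1% were lower at 1 h, and the share that was higher is not given here, so nothing is read from the 8. At 4 h, 6 of the list were higher and 3 lower (of all genes, 19.7% and 20.4%). Cdc42ep3, an effector of the small GTPase Cdc42 in actin organization, was at 35.0 to 40.7 CPM untreated, 7.98 to 10.4 at 1 h and 9.43 to 11.8 at 4 h, and no change from 1 h to 4 h was called (log2 0.14 ± 0.10, edgeR adjusted p = 0.29).

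Receptors coupled to G proteins carry the signals of hormones, lipids and nucleotides into the cell. Of 26 genes listed as such receptors (Gpr155 by its gene name) at 2 CPM or more and with chemoattractant receptors counted apart, 9 were members (34.6%, against 2.00% of all genes), and 8 of the 9 stayed low. Ptger4, P2ry1, S1pr2, Lpar5, Gpr34, Gpr155 and Gpr160 were among these, with Ptger2 the exception that recovered. Of the 31 receptors of the list that were tested, 13 were lower and 10 higher at 4 h than untreated.

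Both Gs-coupled receptors of prostaglandin E2 were members, and they parted at 4 h. Ptger4 (receptor EP4) was at 28.5, 42.2, 33.7 and 45.5 CPM untreated, 6.16, 8.09, 7.01 and 7.15 at 1 h and 8.05, 6.56, 6.17 and 8.98 at 4 h. Ptger2 (receptor EP2) was at 14.3, 18.4, 11.1 and 19.4 CPM untreated, 4.61, 5.96, 5.84 and 6.70 at 1 h and 21.3, 21.6, 16.3 and 19.4 at 4 h. The 1 h and 4 h values of Ptger4 thus overlapped, all far below untreated, while each 4 h value of Ptger2 lay above all its 1 h values and within or above its untreated range. Against 1 h, the log2 change was -0.02 ± 0.16 (SE) for Ptger4 (edgeR adjusted p = 0.938) and 1.67 ± 0.17 for Ptger2 (edgeR adjusted p = 3.08e-06). Against untreated, Ptger4 was lower by 2.35 ± 0.16 on the log2 scale (edgeR adjusted p = 2.05e-08), and Ptger2 differed by 0.30 ± 0.16 (edgeR adjusted p = 0.168, and 0.0327 with the mouse as a replicate block). Whether the courses of the 2 genes differ was not tested as such. Hpgd, the enzyme that begins the breakdown of prostaglandin E2, was at 70.1, 78.0, 78.8 and 83.5 CPM untreated, 39.0, 48.4, 39.1 and 45.6 at 1 h and 5.94, 6.18, 6.37 and 7.37 at 4 h. On the log2 scale most of its fall came after 1 h, with a change from 1 h to 4 h of -2.82 ± 0.09 (edgeR adjusted p = 1.29e-10), and 8.45% of the untreated level was left.

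P2ry1, a receptor for ADP, was at 7.53, 7, 7.35 and 6.28 CPM untreated, 1.95, 2.62, 1.56 and 1.47 at 1 h and 0.919, 0.542, 0.437 and 0.828 at 4 h. It stepped down in each interval without overlap, and the step from 1 h to 4 h was -1.56 ± 0.26 (log2, SE, edgeR adjusted p = 0.00025). Gpr155, a lysosomal membrane protein with a receptor-like part, was at 60.3, 73.6, 64.2 and 62.6 CPM untreated, 35.0, 33.0, 34.8 and 31.5 at 1 h and 3.94, 4.39, 3.55 and 5.26 at 4 h. Most of its fall on that scale also came after 1 h (log2 -3.05 ± 0.10, edgeR adjusted p = 1.35e-10). S1pr2, a receptor for sphingosine 1-phosphate, was at 168 to 170 CPM in the 4 untreated libraries, at 51.7, 41.3, 64.0 and 43.8 at 1 h and at 73.2, 64.2, 64.2 and 66.6 at 4 h. Its rise from 1 h (0.33 ± 0.10, edgeR adjusted p = 0.023) was lost without mouse 2 (0.0729) or 4 (0.0718) at 1 h or mouse 1 at 4 h (0.07), and its level remained 39.6% of untreated.

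Among 13 chemoattractant receptors at 2 CPM or more, Ptafr and C3ar1 were members. Ptafr, the receptor for platelet-activating factor, was at 502, 504, 491 and 482 CPM untreated, 189, 182, 206 and 181 at 1 h and 214, 207, 218 and 208 at 4 h. C3ar1, the receptor for complement fragment C3a, was at 1419, 1394, 1572 and 1424 CPM untreated, 768, 743, 880 and 721 at 1 h and 789, 834, 836 and 986 at 4 h. Both stayed well below untreated in each mouse at 4 h, by a log2 change of -1.25 ± 0.05 (SE) for Ptafr (edgeR adjusted p = 1.44e-10) and -0.78 ± 0.07 for C3ar1 (edgeR adjusted p = 9.66e-07), with no call against 1 h (edgeR adjusted p = 0.321 and 0.613). For Ptafr that p was 0.0173 (log2 0.16) when libraries were scaled by their totals alone. Of the 17 receptors of the list that were tested, 9 were lower and 4 higher at 4 h than untreated.

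Toll-like receptors and their adaptors gave 4 members of 21 at 2 CPM or more, and these members split between the classes. Tlr4, the receptor for bacterial lipopolysaccharide, was at 110, 90.8, 123 and 96.9 CPM untreated, 60.9, 58.2, 62.1 and 52.4 at 1 h and 127, 104, 106 and 122 at 4 h. Tlr7, the endosomal receptor for single-stranded RNA, was at 435, 426, 528 and 405 CPM untreated, 263, 284, 299 and 226 at 1 h and 95.7, 102, 109 and 112 at 4 h. Tlr4 had returned to its untreated range or, in mouse 1, above it, while Tlr7 had fallen in each mouse to 23.3% of untreated. From 1 h to 4 h, the log2 change was 0.88 ± 0.10 (SE) for Tlr4 (edgeR adjusted p = 5.98e-06) and -1.45 ± 0.10 for Tlr7 (edgeR adjusted p = 3.35e-08). Tlr6, which pairs with Tlr2 to bind bacterial lipopeptides, was at 22.7 to 28.6 CPM untreated, 12.2 to 15.6 at 1 h and 20.5 to 24.1 at 4 h, a rise of 0.63 ± 0.09 from 1 h (edgeR adjusted p = 0.000115). Its remaining difference from untreated was not called (log2 -0.22 ± 0.09, edgeR adjusted p = 0.0774), but was with the mouse as a replicate block (0.0188) or without untreated mouse 1 (0.044). Ticam1, the adaptor TRIF of Tlr3 and Tlr4, was at 40.1 to 46.8 CPM untreated, 21.5 to 25.2 at 1 h and 25.4 to 29.9 at 4 h, below untreated by 0.65 ± 0.08 on the log2 scale (edgeR adjusted p = 8.45e-06). Slc15a4, a transporter of the endolysosome that Tlr7 signalling depends on, was at 116 to 128 CPM untreated, 59.4 to 63.3 at 1 h and 34.9 to 37.6 at 4 h, a further fall of 0.86 ± 0.05 from 1 h (log2, edgeR adjusted p = 2.01e-08). Of the 21 genes of the list, 7 were lower and 5 higher at 4 h than untreated. Nfkbiz, a nuclear IkB protein needed for secondary Toll-like receptor targets, was at 40.1 to 58.1 CPM untreated, 18.2 to 26.4 at 1 h and 22.4 to 25 at 4 h, and was the only member of 15 genes of NF-kB subunits and inhibitors.

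Transcription factors of macrophage identity were also members, though only 3 of the 38 of the list at 2 CPM or more. Maf, encoded by a single exon and typical of tissue macrophages, was at 550, 657, 596 and 633 CPM untreated, 323, 361, 359 and 353 at 1 h and 352, 426, 377 and 429 at 4 h. Cebpa, also of a single exon and needed to form the myeloid lineage, was at 94.1, 117, 95.6 and 106 CPM untreated, 51.7, 51.4, 55.7 and 55.6 at 1 h and 37.0, 39.1, 39.5 and 36.6 at 4 h. Cebpa went further down in each mouse (log2 -0.59 ± 0.07 from 1 h, SE, edgeR adjusted p = 1.09e-05), whereas no change of Maf from 1 h was called (0.09 ± 0.07, edgeR adjusted p = 0.366). Prdm1, the repressor Blimp-1, was at 24.8 to 37.2 CPM untreated, 11 to 15.2 at 1 h and 18.1 to 23.5 at 4 h, rising by 0.66 ± 0.14 from 1 h (edgeR adjusted p = 0.00181). Klf6, a zinc finger factor of inflammatory macrophages, was at 354 to 394 CPM untreated, 187 to 209 at 1 h and 231 to 290 at 4 h, and rose by 0.30 ± 0.06 (edgeR adjusted p = 0.00174). Of the 40 myeloid factors tested, 20 were lower and 10 higher at 4 h than untreated. Genes named Zfp gave 12 members of 279 (4.30%), 2 of which stayed low, 5 partly recovered and 5 recovered. The most abundant of the 4 lowest at 1 h was Zfp36l1, which binds AU-rich RNA and promotes its decay, at 226, 322, 240 and 317 CPM untreated, 97.7, 146, 140 and 178 at 1 h and 184, 262, 200 and 245 at 4 h. Its groups overlapped between untreated and 4 h (log2 -0.33 ± 0.17, edgeR adjusted p = 0.127, and 0.000602 with the mouse as a replicate block), with 4 h lower in 4 of 4 mice.

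Of 21 cytokines and growth factors at 2 CPM or more, 2 were members (9.52%, against 2.00% of all genes), Pdgfb and Il16, while Gdf15, a TGF-beta family cytokine that neither this list nor the BMP and TGF-beta list holds, was also a member (45.2% of untreated at 1 h). Pdgfb, a growth factor for mesenchymal cells, was at 60.3, 73.5, 55.9 and 81.8 CPM untreated, 18.6, 21.3, 21.7 and 27.2 at 1 h and 16.6, 18.9, 18.9 and 24.4 at 4 h. It stayed low, and the slight step down from 1 h in each mouse (log2 -0.26 ± 0.14, SE) was not called (edgeR adjusted p = 0.167) except with the mouse as a replicate block (0.00685). Il16, a ligand of CD4, was at 105 to 142 CPM untreated, 43.3 to 50.9 at 1 h and 73.0 to 106 at 4 h, a rise of 0.74 ± 0.12 from 1 h (edgeR adjusted p = 0.000237). Bmp2, a bone morphogenetic protein and the 1 member of the 26 listed genes of the BMP and TGF-beta pathway at 2 CPM or more, was at 11.2, 24.9, 13.7 and 21.2 CPM untreated, 3.25, 9.46, 7.49 and 8.02 at 1 h and 2.27, 5.20, 3.98 and 5.63 at 4 h. Mice 2 and 4 were the highest in all 3 groups. Bmp2 was lower at 4 h than untreated by 2.06 ± 0.34 on the log2 scale (edgeR adjusted p = 0.000176), and its further step from 1 h (-0.81 ± 0.34, edgeR adjusted p = 0.078) was called with the mouse as a replicate block (0.000135), without 1 h mouse 1 (0.0167) and without the low-count filter (0.025). Of the 26 cytokines and growth factors tested, 10 were lower and 11 higher at 4 h than untreated.

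The 4 genes with the lowest level at 4 h, Fam214a, Gpr155, Hpgd and P2ry1, were not the 4 with the deepest drop at 1 h. Fam214a was at 63.5, 74.2, 52.6 and 69.8 CPM untreated, 31.4, 38.5, 32.0 and 38.2 at 1 h and 4.05, 4.45, 4.03 and 4.43 at 4 h. At 6.67% of untreated it was the lowest of the set, next to Gpr155 at 6.72%, having been at 54.0% at 1 h (log2 change from 1 h -3.14 ± 0.12, SE, edgeR adjusted p = 2.18e-10). Slc40a1, the iron exporter ferroportin, was at 642, 567, 590 and 569 CPM untreated, 339, 351, 289 and 281 at 1 h and 143, 150, 127 and 131 at 4 h. It was at 53.2% of untreated at 1 h and 23.2% at 4 h, with a log2 change from 1 h of -1.29 ± 0.09 (edgeR adjusted p = 4.12e-08). Other members that fell further were Apobec1, a cytidine deaminase that edits RNA (log2 -0.62 ± 0.07 from 1 h), the Ras exchange factor Rasgef1b (-0.94 ± 0.12), the GTPase-activating protein Arhgap19 (-1.21 ± 0.11), the ubiquitin ligase Rnf144b (-1.63 ± 0.15), the transmembrane semaphorin Sema6d (-1.92 ± 0.25) and Socs6, an adaptor of receptor degradation (-0.42 ± 0.10), all called in edgeR and lower in 4 of 4 mice. Of the 75 genes of small GTPase exchange factors and GTPase-activating proteins tested, 35 were lower and 10 higher at 4 h than untreated, and 2 were members.

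At the other end, 2 members were higher at 4 h than untreated. Osgin1, an oxidative stress response gene, was at 71.4, 72.8, 71.8 and 60.7 CPM untreated, 31.2, 36.7, 38.9 and 38.7 at 1 h and 102, 104, 109 and 85.5 at 4 h. F630028O10Rik, a gene on chromosome X, was at 26.2, 19.5, 19.7 and 23.4 CPM untreated, 11.8, 10.9, 11.6 and 13 at 1 h and 28.5, 30.5, 27.0 and 30.5 at 4 h. In both, each 4 h value lay above each untreated one, and the log2 change against untreated was 0.51 ± 0.09 (SE) for Osgin1 (edgeR adjusted p = 0.000359) and 0.36 ± 0.09 for F630028O10Rik (edgeR adjusted p = 0.00651). Ankrd37, an ankyrin repeat gene induced by hypoxia, was at 5.62, 5.08, 4.22 and 7.41 CPM untreated, 1.85, 0.984, 1.22 and 1.78 at 1 h and 6.65, 6.99, 5.20 and 7.41 at 4 h, the largest rise from 1 h among the genes named here (log2 2.07 ± 0.22, edgeR adjusted p = 4.58e-06). Card6 stood at 123% of untreated, the cohesin protector Sgo2a at 117%, the JmjC gene Kdm8 at 111% and Efcab7, which reached the mean of 2 CPM by its 4 h values, at 110%, all without a call against untreated (edgeR adjusted p = 0.172, 0.573, 0.78 and 0.665), of which Card6 was called with the mouse as a replicate block (0.0246). The rises of Card6, Sgo2a and Kdm8 from 1 h were called in edgeR, though that of Kdm8 (0.85 ± 0.29, adjusted p = 0.0326) was lost without 1 h mouse 2 (0.0912) or 4 (0.0856), without 4 h mouse 1 (0.104) or 3 (0.0822), or with the untreated group left out of the fit (0.0551). Nothing is read from the rise of Efcab7, since its 4 h values brought it into the set.

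The most abundant member was Txnip, an inhibitor of thioredoxin that also limits glucose uptake. It was at 2052, 2381, 2048 and 2429 CPM untreated, 827, 938, 887 and 1109 at 1 h and 1349, 1772, 1464 and 1695 at 4 h. The 3 groups did not overlap, and the log2 change was 0.65 ± 0.10 (SE) from 1 h (edgeR adjusted p = 0.00015) and -0.53 ± 0.10 against untreated (edgeR adjusted p = 0.000674). Clec2i, a lectin-like surface protein, was at 9.34 to 16.9 CPM untreated, 3.02 to 4.26 at 1 h and 4.28 to 7.91 at 4 h. Its rise from 1 h (0.57 ± 0.21, edgeR adjusted p = 0.0454) was lost with limma-voom (0.109) and without mouse 1 (0.0569) or 2 (0.0548) of the untreated group, mouse 1 (0.0658), 2 (0.0509), 3 (0.138) or 4 (0.0781) at 1 h, or mouse 1 (0.0845), 2 (0.0605) or 4 (0.156) at 4 h. Ubiquitin ligase genes gave 9 members of 197 (4.57%), of which 4 stayed low, 2 partly recovered and 3 recovered. Trim21, an intracellular antibody receptor, was at 52 to 60.5 CPM untreated, 26.0 to 31.8 at 1 h and 31.2 to 41.9 at 4 h, and Trim16 at 28.1 to 32.3, 14 to 17.1 and 16.0 to 20.4. Neither rise from 1 h was called (edgeR adjusted p = 0.0767 and 0.593), but that of Trim21 was with the mouse as a replicate block (0.00777), with scaling by library totals alone (0.0195) and without 4 h mouse 1 (0.0493) or 2 (0.0311).

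Of the members, Rnf135, at 59.93% of untreated at 1 h, Tlr7 at 59.76% and Plpp7 at 59.59% lay just inside the limit of 60%. Atf7ip at 60.1%, Slc2a4rg-ps at 60.18% and Zfp120 at 60.2% lay just outside it. At 4 h, the 3 inside were at 83.2, 23.3 and 70.7% of untreated.

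**Figure D3:**
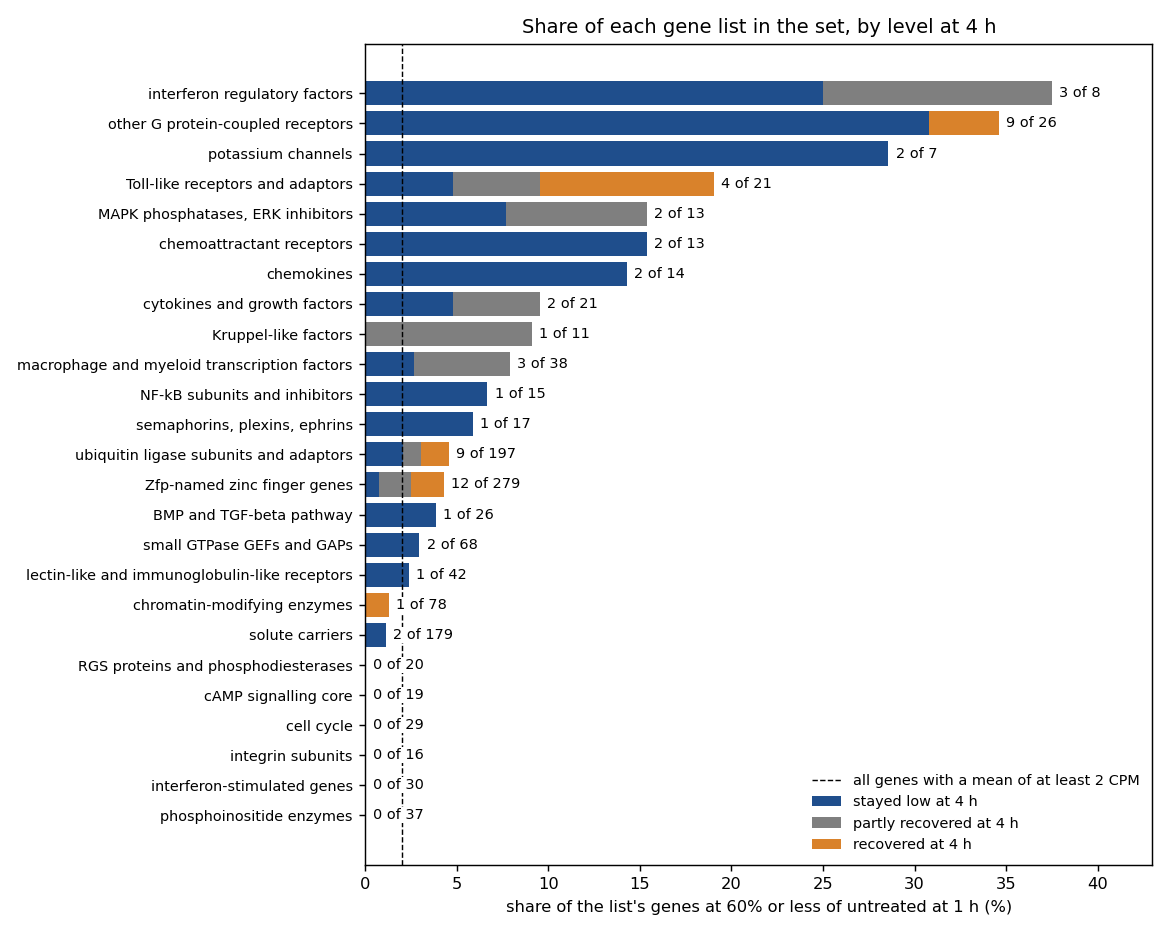
Share of each of 25 gene lists that met the rule, in percent of the list's genes with a mean of at least 2 CPM, divided by level at 4 h, with the counts beside each bar and a dashed line at the 2.00% of all such genes. Interferon regulatory factors (3 of 8) and G protein-coupled receptors (9 of 26) had the highest shares, and 6 lists had no member.

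The gene lists were drawn up by hand from symbols and are partial, so a list without a member does not speak for every gene of its kind. Lists with no member were the integrin subunits, the phosphoinositide enzymes, the regulators of G protein signalling (RGS) and phosphodiesterases, the core of cyclic AMP signalling, the cell cycle genes and the interferon-stimulated genes. Outside them, the interferon-inducible genes named above, the protein kinase A anchor Akap10 (42.6% of untreated at 1 h) and the mitotic gene Sgo2a (58.4%) were members. Rgs3, of the RGS list, met the ratio and the order in each mouse and missed only the mean over all 12 libraries. Among all 12386 genes tested, 20.4% were lower and 19.7% higher at 4 h than untreated. The counts per list that follow are to be set beside these shares, and lists near them show nothing particular. Of the 21 core genes of cyclic AMP signalling tested, 3 were lower and 10 higher at 4 h than untreated, and of the 24 RGS and phosphodiesterase genes 8 were lower and 8 higher. Integrin subunits were lower in 5 and higher in 8 of 20, phosphoinositide enzymes lower in 21 and higher in 7 of 40, and cell cycle genes lower in 7 and higher in 4 of 29. Among lists with 1 or 2 members, solute carriers were lower in 52 and higher in 50 of 201, lectin-like receptors lower in 22 and higher in 11 of 47, and chromatin-modifying enzymes lower in 12 and higher in 13 of 79. The semaphorin and ephrin list was lower in 10 and higher in 3 of 24, Kruppel-like factors lower in 5 and higher in 2 of 11, the BMP and TGF-beta pathway lower in 6 and higher in 8 of 27, and NF-kB subunits and inhibitors lower in 6 and higher in 5 of 15. In the larger lists, 46 Zfp genes were lower and 23 higher of 324, and 48 ubiquitin ligase genes were lower and 36 higher of 224.

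Gene structure, which the rule did not use, differed between the members and all genes, as in the number of exons. Of the 192 protein-coding members, 48 (25%) had 1 or 2 exons in their principal transcript, against 565 of the 10220 protein-coding genes at 2 CPM or more (5.53%). Among coding genes with 1 or 2 exons, 8.50% were members, against 1.49% of the 9655 with 3 or more, and 16 of the 169 genes of a single exon were (9.47%). Jun, Maf and Cebpa belong to the single-exon genes, and Kcnj2, Egr2, P2ry1, Ptger2, S1pr2, C3ar1 and Ptafr to those with 2 exons. The share rose with the depth of the drop: 19.8% (26 of 131) at 45 to 60% of untreated, 32.6% (14 of 43) at 30 to 45% and 44.4% (8 of 18) under 30%. By class at 4 h it was 22.8% in genes that stayed low, 29.1% in the partly recovered and 24.4% in the recovered. The median member had 5 exons and a span of 17.8 kb, against 9 exons and 24.5 kb over all coding genes.

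**Figure D4:**
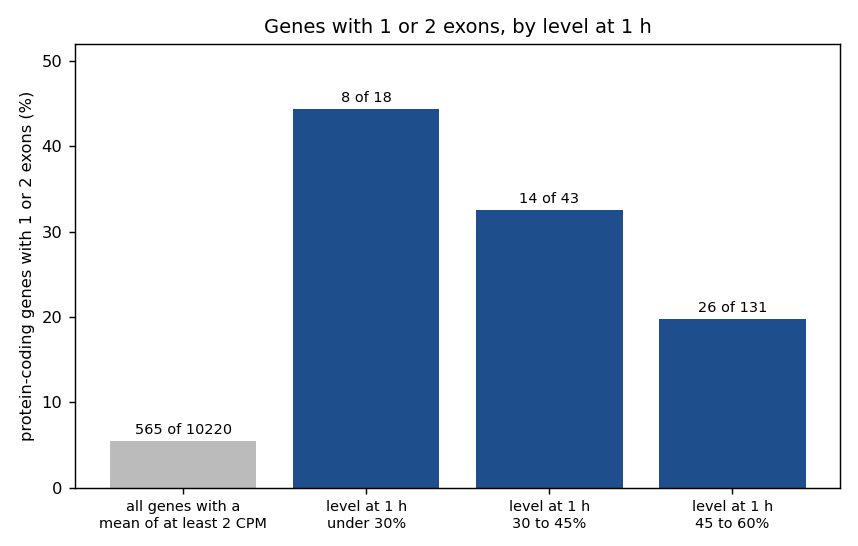
Percent of protein-coding genes with 1 or 2 exons among all genes with a mean of at least 2 CPM (grey) and among members by their level at 1 h in percent of untreated (blue), with the counts above each bar. The share was 5.53% over all genes and 19.8 to 44.4% in the 3 groups of members.

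The depth of the drop also went with the level at 4 h. Of the 18 members under 30% of untreated at 1 h, 16 stayed low and 1, Ankrd37, recovered, with a median of 27.7% of untreated at 4 h. Of the 45 at 30 to 45%, 30 stayed low and 4 recovered (median 53.8%), and of the 148 at 45 to 60%, 59 stayed low and 45 recovered (median 64.5%). The 1 h and 4 h levels share their untreated libraries, so this is a description of the 211 genes.

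The letters TATTTAT, the core of AU-rich elements that shorten RNA life, were in the 3′ UTR of 67 of the 190 members with an annotated UTR (35.3%), against 2918 of 10144 genes (28.8%). The UTRs of members were somewhat longer (median 1229 bases against 1050), and the motif count per kb was 0.349 against 0.286. It was in 39.6% of the genes that stayed low, 30.9% of the partly recovered and 31.8% of the recovered, and a match is a description of the letters, not of a working element.

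Of the members, 42 lay in 19 groups of neighbours within 100 kb of each other. The share over all genes was not computed, so no clustering is read from this count. Besides Ccl3 and Ccl4, the groups paired S1pr2 with the adhesion gene Icam1, Ptger4 with Card6, Egr2 with Ado, C3ar1 with Necap1 and Arhgap19 with Frat1 and Frat2, and a group of 4 on chromosome 11 joined Tgtp2 with 3 others. Neighbours did not always share their class at 4 h, since Ptger4 stayed low (20.1% of untreated) while Card6 was at 123%. Of the 211 members, 19 were not protein-coding (6 antisense RNAs, 6 long intergenic RNAs and 4 pseudogenes among them). Counts are uncertain for 14 members that share over 10% of their 50-base stretches with other genes, Tgtp2 (86.6%), Slfn3 (15.6%), Slfn8 (14.6%) and Tlr6 (12.3%) among them. There are 28 members (Tagap in both groups) that have more than 10% of their exon sequence covered by an opposite-strand gene, whose reads cannot be told apart if the counting ignored strand, and these include Ptger4 (16.5%), Gadd45a (19.1%), P2ry1 (23.1%), Txnip (19.4%), Il16 (17.4%), Ankrd37 (26.4%), Sgo2a (35.0%) and Zfp36l1 (55.9%).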

How the data were processed

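RNA-seq was performed on 12 libraries, 3 from each of 4 mice. Per the labels and the study's methods, the authors made stranded mRNA libraries, mapped single-end reads of 50 bases to GRCm38 with TopHat2 2.0.11 and deposited raw counts per gene from HTSeq 0.8.0, not normalized. Which strand setting HTSeq was run with, and which annotation release, is not given in the sources used here. Symbols, exons and UTRs are from GENCODE M21 (GRCm38), which held 53274 of the 53379 genes and all 211 members. Depth is given as library totals, from 14580533 to 24153284 counts.

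CPM was computed by column total. Differential expression was tested two-sided with edgeR 4.0.16 (quasi-likelihood F test, TMM, 1 mean per group, all 12 libraries in 1 fit, adjusted p under 0.05) in R 4.3.3, the steps having been tested on simulated data. The common biological coefficient of variation was 0.112. TMM centred the genes: with library totals alone the median log2 change was -0.073 at 1 h, 0.028 at 4 h and 0.100 from 1 h to 4 h. Libraries of the same mouse deviated together (r 0.29 to 0.561 over 12 pairs, against -0.304 to 0.0912 over 36 pairs of different mice), as the labels give the mouse, so the mouse is a true pairing and a fit with the mouse as a replicate block was also run.

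Alternatives were DESeq2 1.42.0, limma-voom (limma 3.58.1), other scalings, filters, pseudocounts and limits, and leaving out each library or mouse. The members, gene lists and tests were chosen with earlier results of these data known. Genes named were, among members, the 10 lowest at 1 h, the 8 lowest and 8 highest at 4 h, the 6 most abundant untreated, the 3 nearest to the limit, and up to 4 per list, and 3 genes just outside the limit. Lpar5, Gpr34, Gpr160, Gdf15, Akap10, Rgs3, 6 interferon-inducible genes and neighbouring genes are named for identity, some with their 1 h level, chosen after their values were seen. The results of 1 gene that the rule names are not reported here.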

Additional observations from a re-analysis of the deposited data

Results flagged for a closer look

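Single libraries stood apart from the other 3 of their group in 8 of 177 groups of 4 values, where chance gives about 8.85 (1 in 20). The gap to the nearest library, as a share of the group's range, was 0.89 for Osgin1 in untreated mouse 4 (the lowest), 0.831 for C3ar1 in untreated mouse 3 (the highest) and 0.909 for Irf8 in 1 h mouse 1 (the lowest). It was 0.846 for Rnf135 in 4 h mouse 3 (the highest) and also 0.846 for Il16 in 4 h mouse 2 (the highest), 0.867 for Plpp7 in 4 h mouse 1 (the lowest), and for Zfp94 0.837 in 1 h mouse 4 (the highest) and 0.843 in 4 h mouse 3 (the lowest). Without 4 h mouse 3, Rnf135 was lower than untreated (log2 -0.43, edgeR adjusted p = 0.00385), and its rise from 1 h was no longer called (0.24, adjusted p = 0.0839). Without 1 h mouse 4, Zfp94 was called higher at 4 h than at 1 h (0.72, adjusted p = 0.0298).

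The level at 4 h was called different from that at 1 h in 40 of the 59 genes named, by edgeR's test of 4 h against 1 h (18.7% of all 12386 genes tested were higher and 19.8% lower). The count was partly set by the choice of genes. Each was chosen for low 1 h values, which favours rises, and some were named for the lowest or highest level at 4 h. The calls are therefore listed as a description, and nothing is read from that of Efcab7, which its 4 h values brought into the set. The level was higher at 4 h for Ankrd37 (log2 2.07), Ptger2 (1.67), Osgin1 (1.37), Jun (1.36), Gadd45a (1.22), F630028O10Rik (1.21), Dusp7 (1.18), Card6 (1.08), Sgo2a (0.92), Efcab7 (0.88), Tlr4 (0.88) and Kdm8 (0.85). Smaller rises were those of Ccl3 (0.81), Kcnj2 (0.76), Il16 (0.74), Ccl4 (0.66), Prdm1 (0.66), Txnip (0.65), Tlr6 (0.63), Clec2i (0.57), Zfp36l1 (0.57), Rnf135 (0.38), S1pr2 (0.33) and Klf6 (0.30). It was lower at 4 h for Fam214a (-3.14), Gpr155 (-3.05), Hpgd (-2.82), Sema6d (-1.92), Rnf144b (-1.63), P2ry1 (-1.56), Tlr7 (-1.45), Slc40a1 (-1.29), Arhgap19 (-1.21), Kcnj10 (-0.95) and Rasgef1b (-0.94). Smaller falls were those of Slc15a4 (-0.86), Apobec1 (-0.62), Cebpa (-0.59), Socs6 (-0.42) and Irf8 (-0.38).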

How the results depend on the processing

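The count of members lower at 4 h than untreated was 158, with 153 to 167 under every alternative fit, and that of members higher than at 1 h was 88, with 78 to 97. With the mouse as a replicate block the counts were 167 and 96; among the genes named, 13 further calls were made with the block and none was lost. The set of 211 genes became 88 with a limit of 50% at 1 h, of which 57 stayed at 60% or less and 8 were at 80% or more at 4 h. The 50 at 80% or more became 30 with TMM library sizes and 31 with a pseudocount of 1. Without each mouse in turn, 203 to 245 genes met the rule, 103 to 115 stayed at 60% or less and 48 to 66 were at 80% or more. Directions that turned were of small log2 differences: with library totals alone, Ptger4 (0.07) and Nfkbiz (0.02) from 1 h to 4 h. Leaving out 1 library at a time, the difference from 1 h to 4 h spanned 0 for Ptger4 (-0.12 to 0.06), C3ar1 (-0.01 to 0.09), Plpp7 (-0.01 to 0.31), Zfp449 (-0.06 to 0.11), Dusp4 (-0.13 to 0.33) and Trim16 (-0.01 to 0.13), as did that of Kdm8 from untreated (-0.06 to 0.30); none of these differences was called with all libraries. The cause was not tested. Genes near 2 CPM are limited by depth.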
